A study of Rattus norvegicus with 9 samples.

Results

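The feedback inhibitors of mitogen-activated protein kinase (MAPK) signalling were followed across 9 RNA-seq libraries of primary aortic smooth muscle cells. They comprised the dual-specificity phosphatase genes Dusp1, Dusp4, Dusp5 and Dusp6, the Sprouty genes Spry1, Spry2 and Spry4, and the Sprouty-related genes Spred1 and Spred2. These 9 genes were picked by symbol from the 32623 genes of the deposited table, and each symbol matched 1 row. The cells were wild-type rat aortic smooth muscle cells at passages 4 to 8, kept without serum for 12 h and then treated in 2% serum. Control cells received DMSO. PDGF-BB cells were given the smooth muscle mitogen platelet-derived growth factor BB for 24 h. Its dose is 10 ng/mL in the sample labels but 20 ng/mL in the design text. PDGF-BB+PTUPB cells received 0.5 µM PTUPB, an inhibitor of cyclooxygenase-2 and soluble epoxide hydrolase, 2 h before the same growth factor. Each group held 3 libraries. The labels do not say whether these came from separate cultures or animals, so p-values measure the spread between the libraries, which may be technical.

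Receptor tyrosine kinases such as the PDGF receptors signal through RAS, RAF and MEK to the kinase ERK, and stress stimuli act through the related kinases p38 and JNK. Dual-specificity phosphatases remove the activating phosphates of these kinases, Sprouty proteins act further up, between the receptor and RAF, and SPRED proteins bring the RAS inactivator neurofibromin to the membrane. Many of these inhibitors are themselves transcribed in response to ERK, and so form a negative feedback loop. Messenger RNA was measured here, not phosphorylation or protein.

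Libraries held 12729187 to 16911050 counts. Of the 9 genes, 8 were among the 11197 genes tested, those that reached 1 FPKM, a fragment count scaled by transcript length and library depth, in at least 3 libraries. Dusp4 reached 1 FPKM in 2 libraries and was not tested. Spry4 reached it in 5, all of them Control or PDGF-BB+PTUPB libraries, so its place among the tested genes depended on the groups in which it was high. Smooth muscle actin (Acta2) stood at 454 to 779.9 FPKM and Tagln at 1063 to 1845 FPKM over the libraries, whereas Myocd reached at most 1.00 FPKM and Des 0.18 FPKM. The endothelial genes Cdh5, Kdr and Tie1, the leukocyte genes Ptprc and Tyrobp and the Schwann cell gene Sox10 were listed at 0 in every library. Other markers of these lists were present, with the endothelial gene Egfl7 at 11.9 to 17.1 FPKM and the macrophage gene Cd14 at 13.0 to 19.6 FPKM. In Control replicate 2 and PDGF-BB replicate 3, longer genes read lower than in the other libraries of the group, with Spearman correlations across 11197 genes of -0.396 and -0.384 between deviation and exonic length. Control replicate 1 (0.358) and PDGF-BB replicate 2 (0.361) showed trends the other way. Genes are not independent replicates, and deviations within a group of 3 are tied to each other, so these values are descriptions.

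Dusp1 was by far the most abundant of the 9 genes in every library. On the FPKM scale, which allows levels of different genes to be compared, Control cells held 100.1 ± 1.96 FPKM of Dusp1 (SD, n = 3). Spred1 (13.0 ± 0.634), Spry2 (10.4 ± 1.62), Spred2 (10.0 ± 1.33) and Dusp6 (9.15 ± 0.535) followed in Control. Dusp1 lay above Spred1, and Spred1 above Spry2, in all Control libraries, while Spry2 overlapped with Spred2 and Spred2 with Dusp6. Spry1 (3.69 ± 1.16 FPKM), Dusp5 (2.20 ± 0.385) and Spry4 (1.79 ± 0.316) came next, Spry1 overlapping with Dusp5 and Dusp5 with Spry4. Dusp4 (0.863 ± 0.290) was lowest, below Spry4 in all Control libraries. By mean FPKM over the 9 libraries Dusp1 stood at the 90.5th percentile of the tested genes, Dusp6 at 49.7 and Spry4 at 4.75.

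With PDGF-BB the order changed beneath Dusp1. Dusp1 held 46.7 ± 3.46 FPKM and Dusp6, at 13.4 ± 1.29 FPKM, moved from the fifth to the second place, though its libraries overlapped with those of Spry2 (11.9 ± 0.234). Spry1 (1.63 ± 0.235) and Spry4 (0.850 ± 0.0361) lay below Dusp5 (3.16 ± 0.500) in every PDGF-BB library. In PDGF-BB+PTUPB cells the levels were 80.8 ± 18.2 FPKM for Dusp1, 12.2 ± 0.838 for Spred1, 11.4 ± 0.650 for Spry2 and 10.1 ± 1.295 for Dusp6, and the last 3 of these overlapped from each to the next.

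**Figure D1:**
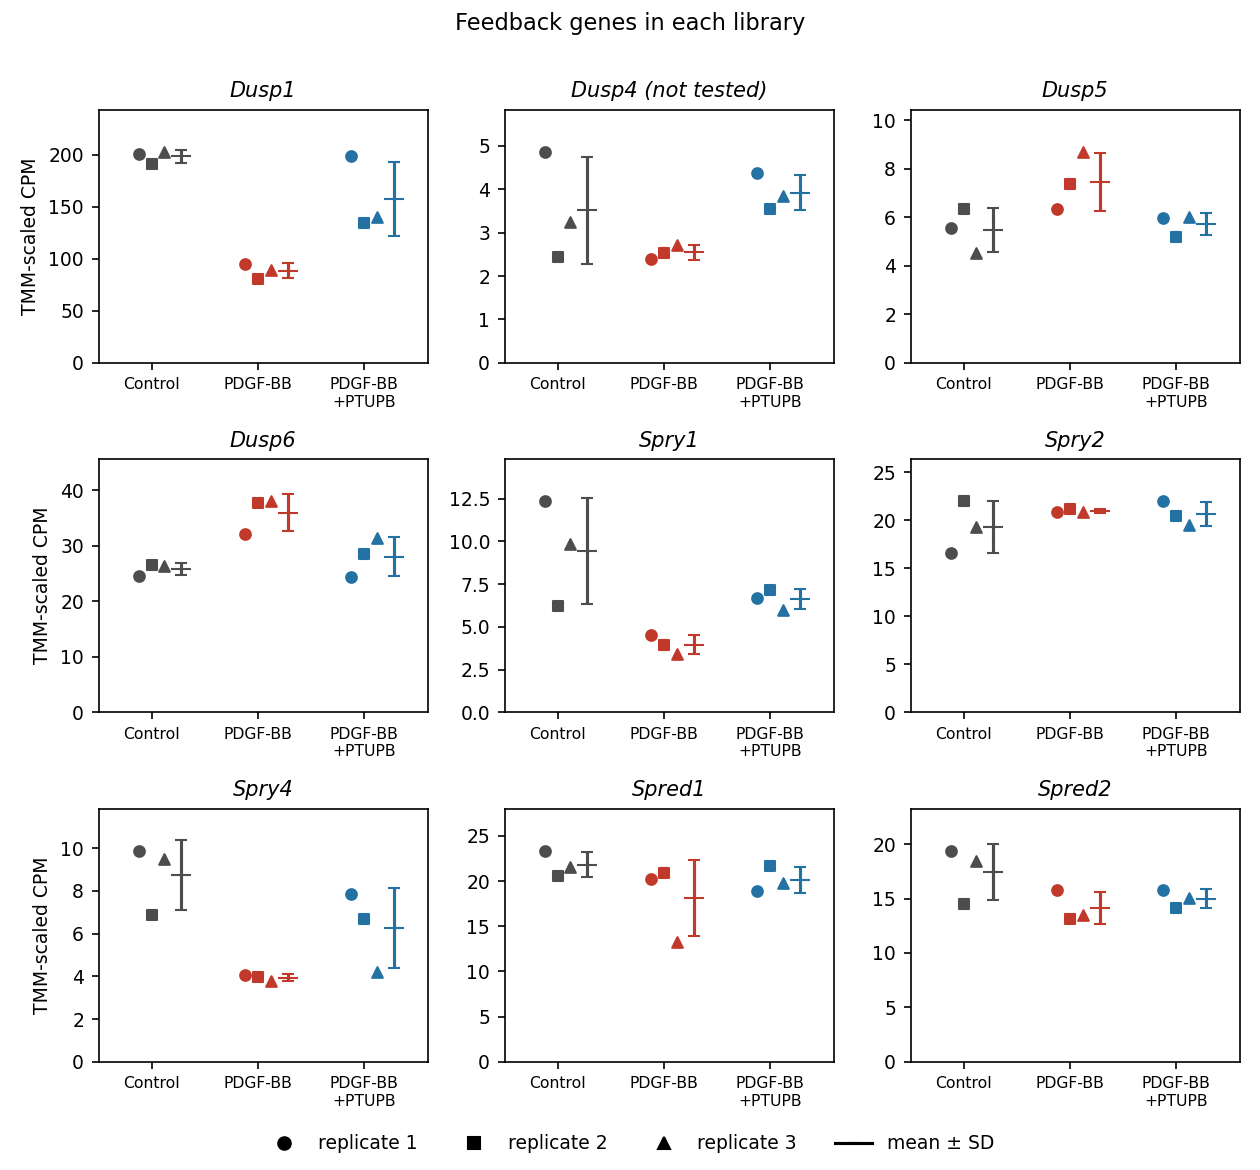
Level of each of the 9 genes in every library, in CPM after TMM scaling (vertical axis, from 0, with its own range per gene), by group (horizontal axis); symbols mark the replicate number, and the bars are the mean ± SD of 3 libraries. Dusp1, Spry1 and Spry4 are lowest in the PDGF-BB libraries and Dusp6 is highest there, while Spry2 overlaps between all groups.

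The comparison of PDGF-BB with Control asks which of these inhibitors differed after a day of growth factor. Dusp1, Spry1 and Spry4 fell, to 0.445, 0.421 and 0.452 of their Control level, and Dusp6 rose 1.39-fold. Of the 8 tested genes 3 were lower and 1 was higher at an adjusted p under 0.05 (edgeR quasi-likelihood test, Benjamini-Hochberg adjustment over all 11197 genes). Among the 3 lower genes, Spry4 entered the test through the groups in which it was high. Over all tested genes 33.2% passed, 15.8% lower and 17.3% higher. Libraries of the groups did not overlap for 5 of the 8 genes, 2 higher and 3 lower, against 44.6% of all tested genes (22.6% higher and 22.0% lower). With a filter that let all 9 genes into the test, 3 were again lower and 1 higher. Over the whole table TMM scaling gave 1942 higher and 1772 lower genes, and scaling to library totals 2410 and 1350, and under both 3 feedback genes were lower and 1 higher.

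Dusp1 (ENSRNOG00000003977) encodes a nuclear phosphatase of p38, JNK and ERK. It was at 201, 192 and 203 CPM (counts scaled to library depth with TMM factors) in Control replicates 1 to 3, at 95.3, 80.9 and 88.8 CPM in PDGF-BB and at 199, 134 and 139.9 CPM in PDGF-BB+PTUPB. Every PDGF-BB library lay below every library of the other groups, and PDGF-BB+PTUPB replicate 1 lay within the Control range. Of all tested genes 44.6% separated PDGF-BB from Control and 40.7% from PDGF-BB+PTUPB. The share that separated it from both at once was not counted. The fall with PDGF-BB was -1.17 ± 0.14 (log2 fold change ± SE; edgeR adjusted p = 1.88e-04). In bulk RNA, fewer cells of a type and less RNA per cell cannot be told apart.

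Dusp6 (ENSRNOG00000023896) encodes a cytoplasmic phosphatase that is selective for ERK. Its level was 24.5, 26.5 and 26.4 CPM in Control cells, 32.1, 37.8 and 38.02 CPM in PDGF-BB and 24.3, 28.5 and 31.4 CPM in PDGF-BB+PTUPB. All PDGF-BB libraries lay above all others, and the PDGF-BB+PTUPB libraries spread on both sides of the Control range. The rise with PDGF-BB was 0.48 ± 0.11 on the log2 scale (edgeR adjusted p = 0.00760).

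Dusp5 (ENSRNOG00000014061), whose product is a nuclear phosphatase selective for ERK, was at 5.54, 6.31 and 4.52 CPM in Control libraries. PDGF-BB libraries held 6.32, 7.37 and 8.69 CPM, and the counts in both groups ran from 68 to 115 per library. The highest Control library and the lowest PDGF-BB library were nearly equal. The difference of 0.45 ± 0.18 (log2) did not pass (edgeR adjusted p = 0.0819; 95% interval 0.05 to 0.85), though it did without Control replicate 2 (edgeR adjusted p = 0.0474; range over 19 alternatives 0.0474 to 0.244). Dusp4 (ENSRNOG00000011921), another nuclear phosphatase of MAPKs, was at 4.87, 2.44 and 3.26 CPM in Control cells, 2.39, 2.53 and 2.72 CPM in PDGF-BB and 4.37, 3.55 and 3.85 CPM in PDGF-BB+PTUPB. Its Control and PDGF-BB libraries overlapped. With the edgeR filter on counts in place of the FPKM filter, the Dusp4 difference between PDGF-BB and Control was -0.45 ± 0.26 (edgeR adjusted p = 0.221).

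The sequences upstream of the phosphatase genes are shown because Dusp1 and Dusp6 moved in opposite directions with PDGF-BB. RefSeq promoters of the rat assembly GRCr8 were at hand for 8 of the 9 genes. The 250 bases before the gene start are given 5′ to 3′, with matches to the cAMP response element (TGACGTCA), the AP-1 site (TGANTCA), the E-box (CACGTG), the ETS site (CCGGAA) and the CArG box, the binding sequence of serum response factor, in capitals.
Dusp1 (chr10:17184603-17184852, plus strand): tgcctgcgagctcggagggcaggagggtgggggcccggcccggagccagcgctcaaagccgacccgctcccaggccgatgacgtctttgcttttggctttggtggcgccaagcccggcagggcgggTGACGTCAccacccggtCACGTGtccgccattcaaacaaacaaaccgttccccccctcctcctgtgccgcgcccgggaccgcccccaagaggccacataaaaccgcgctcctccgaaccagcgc
Dusp5 (chr1:262543524-262543773, plus strand): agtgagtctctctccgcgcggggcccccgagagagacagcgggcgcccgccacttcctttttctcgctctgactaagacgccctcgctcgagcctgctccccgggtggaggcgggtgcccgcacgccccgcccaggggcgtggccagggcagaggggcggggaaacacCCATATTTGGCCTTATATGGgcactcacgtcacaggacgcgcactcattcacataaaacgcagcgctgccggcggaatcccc
Dusp6 (chr7:35979354-35979603, plus strand): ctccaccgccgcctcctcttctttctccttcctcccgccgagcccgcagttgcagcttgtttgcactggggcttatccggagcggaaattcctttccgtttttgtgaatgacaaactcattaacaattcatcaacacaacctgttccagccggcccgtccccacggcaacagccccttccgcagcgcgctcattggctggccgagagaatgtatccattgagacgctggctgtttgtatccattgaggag
Both strands were searched. The Dusp1 promoter held 1 cAMP response element, 124 to 117 bases before the start, and 1 E-box, 107 to 102 bases before it. The Dusp5 promoter held 2 adjoining CArG boxes, at 82 to 73 and 72 to 63 bases before the start. No motif in this set matched in the Dusp6 window or in that of Spry1. The ETS letters matched once each in the windows of Spry4 and Spry2, and neither Spred gene had a match. Over 33469 promoter windows of 250 bases, 1.59% held the cAMP response element, 6.34% the AP-1 site, 1.5% a CArG box, 5.59% the E-box and 12.6% the ETS site. A match describes letters in the window and was not tested against binding.

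Spry1 (ENSRNOG00000025371) encodes an inhibitor of receptor tyrosine kinase signalling to RAS. It was at 12.3, 6.20 and 9.83 CPM in Control cells, 4.55, 3.95 and 3.40 CPM in PDGF-BB and 6.70, 7.17 and 6.003 CPM in PDGF-BB+PTUPB. Control libraries spread over a wide range, with replicate 2 the lowest, and all PDGF-BB libraries lay below the libraries of both other groups. The fall with PDGF-BB was -1.25 ± 0.24 (log2; edgeR adjusted p = 0.00345). It was -1.38 (edgeR adjusted p = 4.85e-04) without Control replicate 2 and PDGF-BB replicate 3.

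Spry4 (ENSRNOG00000013851), a relative that also acts upstream of RAF, was at 9.88, 6.85 and 9.50 CPM in Control cells, 4.08, 3.95 and 3.78 CPM in PDGF-BB and 7.87, 6.69 and 4.22 CPM in PDGF-BB+PTUPB. PDGF-BB libraries were close together and lay below all others, and PDGF-BB+PTUPB replicate 3 was just above them. The fall with PDGF-BB was -1.15 ± 0.24 (log2; edgeR adjusted p = 0.00451). Its PDGF-BB libraries, at 0.81 to 0.88 FPKM, were under the 1 FPKM filter. The gene thus entered the test through the groups in which it was high, and this p-value depends on the outcome. Spry4 also passed with no filter on low values. On the log2(FPKM + 1) scale, which understates changes of low genes, limma gave -0.81 for Spry1 and -0.59 for Spry4 (limma adjusted p = 0.00583 and 0.0141).

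Spry2 (ENSRNOG00000010058), the most abundant Sprouty gene here, was at 16.6, 22.0 and 19.3 CPM in Control cells, 20.9, 21.2 and 20.9 CPM in PDGF-BB and 22.0, 20.5 and 19.6 CPM in PDGF-BB+PTUPB. The groups overlapped throughout. Its log2 difference between PDGF-BB and Control was 0.12 ± 0.11 (edgeR adjusted p = 0.439), with a 95% interval of -0.13 to 0.36. Of the summed FPKM of the 3 Sprouty genes, Spry2 made up 56.6% to 75.6% in Control, 81.1% to 84.2% in PDGF-BB and 72.6% to 76.6% in PDGF-BB+PTUPB libraries.

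The Sprouty-related genes did not pass in any of the 3 comparisons. Spred1 (ENSRNOG00000005209) was at 23.4, 20.6 and 21.5 CPM in Control cells, 20.2, 20.9 and 13.3 CPM in PDGF-BB and 18.9, 21.7 and 19.8 CPM in PDGF-BB+PTUPB. PDGF-BB replicate 3 stood alone at the low end. The Spred1 log2 difference between PDGF-BB and Control was -0.27 ± 0.16 (edgeR adjusted p = 0.216), and -0.085 without that library. Spred2 (ENSRNOG00000004888) was at 19.4, 14.5 and 18.4 CPM in Control cells, 15.8, 13.1 and 13.5 CPM in PDGF-BB and 15.8, 14.1 and 15.0 CPM in PDGF-BB+PTUPB. Control replicate 2 lay within the PDGF-BB range. The Spred2 difference was -0.30 ± 0.13 (edgeR adjusted p = 0.106). It passed when Control replicate 2 was left out (-0.42, edgeR adjusted p = 0.0216), also together with PDGF-BB replicate 3 (-0.39, edgeR adjusted p = 0.0291), in a range of adjusted p from 0.0216 to 0.295 over 19 alternatives.

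**Figure D2:**
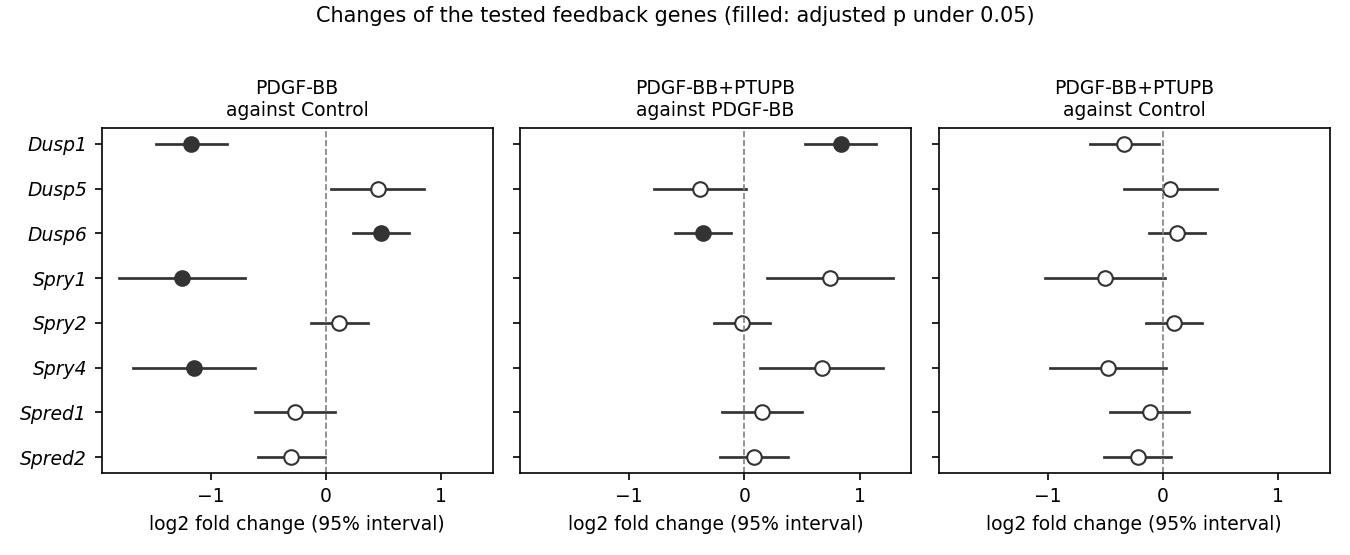
Log2 fold change of the 8 tested genes (horizontal axis) with its 95% interval in the 3 comparisons; filled points have an adjusted p under 0.05 in edgeR. Dusp1, Spry1 and Spry4 are lower and Dusp6 higher with PDGF-BB, Dusp1 and Dusp6 pass with PTUPB in the other direction, and none passes between PDGF-BB+PTUPB and Control.

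PDGF-BB+PTUPB libraries were compared with PDGF-BB libraries next. No group received PTUPB alone, so an effect of PTUPB apart from the growth factor cannot be told from a changed response to it. Dusp1 rose and Dusp6 fell. Of the 8 tested genes 1 was higher and 1 lower, where 18.3% of all tested genes passed, 8.28% higher and 10.0% lower. The change of Dusp1 was 0.83 ± 0.14 on the log2 scale (edgeR adjusted p = 0.00362), or 1.78-fold. It ranged from 0.63 to 0.94 over 19 alternatives and passed in all of them. The lowest value, 0.63, came without PDGF-BB+PTUPB replicate 1, the library with the most Dusp1 in its group. The fall of Dusp6 was -0.36 ± 0.11 (edgeR adjusted p = 0.0459). It was close to the threshold and passed in 10 of 19 alternatives, with adjusted p from 0.0309 to 0.162. Single libraries whose removal ended the Dusp6 call were Control replicates 1 (edgeR adjusted p = 0.0560) and 3 (0.0694), PDGF-BB replicates 2 (0.0911) and 3 (0.0981), and PDGF-BB+PTUPB replicates 1 (0.162) and 2 (0.114).

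Spry1 and Spry4 were higher in every PDGF-BB+PTUPB library than in any PDGF-BB library but did not pass. Spry1 differed by 0.74 ± 0.25 (log2; edgeR adjusted p = 0.0633; 95% interval 0.19 to 1.29) and Spry4 by 0.67 ± 0.24 (edgeR adjusted p = 0.0813; 95% interval 0.14 to 1.204). Spry1 passed in 5 of 19 alternatives, among them DESeq2 (adjusted p = 0.0402), the fit of these 6 libraries alone (edgeR adjusted p = 0.0247) and the fits without Control replicate 1 (0.0420) or 2 (0.0156), and its adjusted p ran from 0.0156 to 0.168. Spry4 passed without PDGF-BB+PTUPB replicate 3 (0.88, edgeR adjusted p = 0.0271), the library in which it was nearest to the PDGF-BB level, in a range from 0.0271 to 0.270. Dusp5, at 5.97, 5.18 and 6.003 CPM in PDGF-BB+PTUPB, lay below all PDGF-BB libraries without passing (-0.39 ± 0.18, edgeR adjusted p = 0.171).

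Among the remaining genes, Spry2 differed by -0.02 ± 0.11 (edgeR adjusted p = 0.914), with a 95% interval of -0.27 to 0.22. Spred1 (0.15 ± 0.16, edgeR adjusted p = 0.547) and Spred2 (0.08 ± 0.13, edgeR adjusted p = 0.713) did not pass either, and their intervals reached 0.50 and 0.38. Dusp4 was higher in each PDGF-BB+PTUPB library than in any PDGF-BB library, on 31 to 60 counts per library in these groups, and with the edgeR filter on counts differed by 0.61 ± 0.26 (edgeR adjusted p = 0.140). The groups did not overlap for 5 of the 8 tested genes, 3 higher and 2 lower, against 40.7% of all tested genes (20.0% higher and 20.7% lower). This comparison and that with Control use the same 3 PDGF-BB libraries, so opposite signs between them are not independent.

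Between PDGF-BB+PTUPB and Control none of the 8 genes passed in edgeR, where 2.21% of all tested genes did, 1.89% higher and 0.313% lower. At an unadjusted p under 0.05 there was 1 gene, Dusp1, and DESeq2 and limma also gave 0 calls. Dusp1 differed by -0.33 ± 0.14 (log2; edgeR adjusted p = 0.317; 95% interval -0.64 to -0.03). Without PDGF-BB+PTUPB replicate 1 it differed by -0.54 and passed (edgeR adjusted p = 0.0199; range over 19 alternatives 0.0199 to 0.712). Spry1 differed by -0.51 ± 0.23 (edgeR adjusted p = 0.376) and passed without Control replicate 2 and PDGF-BB replicate 3 (-0.74, edgeR adjusted p = 0.0220; range 0.0220 to 0.781). Spry4 differed by -0.48 ± 0.23 (edgeR adjusted p = 0.394; 95% interval -0.98 to 0.03). The differences of Dusp5, Dusp6, Spry2, Spred1 and Spred2 lay between -0.22 and 0.12 on the log2 scale. For all 8 genes the libraries of these 2 groups overlapped, against 21.5% of all tested genes without overlap, 12.1% higher and 9.38% lower.

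Some markers of fibroblasts, which also lie in the aortic wall, moved with the same groups as Dusp1, Spry1 and Spry4. Of 5 tested adventitial fibroblast markers 3 fell with PDGF-BB (Scara5, Col14a1 and Dcn), where 15.8% of all tested genes fell. With PTUPB 2 rose (Scara5 and Col14a1), where 8.28% of all tested genes rose. Lum and Pi16 passed in neither comparison. The marker lists were chosen with earlier results of these data known, so their shares beside those of all genes are descriptions. The summed level of all 6 markers was 1204 to 2148 FPKM in Control, 829.6 to 1188 in PDGF-BB and 1327 to 1497 in PDGF-BB+PTUPB. Lum and Dcn were at 364 FPKM or more and 337 FPKM or more in every library, and Dpt reached at most 0.22 FPKM. Summed smooth muscle markers were at 1717 to 2342 FPKM in Control, 2153 to 2517 in PDGF-BB and 2182 to 2441 in PDGF-BB+PTUPB, and of the 6 tested 3 fell with PDGF-BB. Of these, Myh11, a myosin of contractile smooth muscle, fell (-1.04 ± 0.14, edgeR adjusted p = 3.26e-04) and rose with PTUPB (0.54 ± 0.14, edgeR adjusted p = 0.0210). The others that fell were Acta2 and Lmod1. Tagln and Cnn1 did not pass but were higher in every PDGF-BB library than in any Control library. Tagln was at 1908 to 2275 against 1343 to 1847 CPM, and Cnn1 at 121 to 133 against 73.5 to 119 CPM. Summed endothelial markers, 6 of 7 of them under 1 FPKM in every library, were at 12.4 to 13.2, 13.0 to 14.4 and 15.5 to 17.9 FPKM in the 3 groups, and Egfl7 rose with PTUPB (edgeR adjusted p = 0.0429). Summed macrophage markers, 5 of 7 of them under 1 FPKM, were at 15.4 to 24.1, 16.7 to 18.4 and 21.3 to 22.2 FPKM, and Cd14 rose with PTUPB (0.47 ± 0.13, edgeR adjusted p = 0.0304). The part of these markers in the changes of Dusp1, Spry1 and Spry4 was not tested.

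Summed over the 9 genes, the level was 148 to 154 FPKM in Control libraries, 95.4 to 102 in PDGF-BB and 119 to 151 in PDGF-BB+PTUPB. Without Dusp1 the sum was 49.7 to 52.2 FPKM in Control, 48.7 to 53.95 in PDGF-BB and 49.4 to 50.1 in PDGF-BB+PTUPB, so the groups overlapped. Dusp1 made up 66.2% ± 0.463 of the sum in Control (SD, n = 3), 47.6% ± 2.64 with the growth factor and 61.4% ± 5.14 in PDGF-BB+PTUPB. For each 100 FPKM of Dusp1 the libraries held 8.56 to 9.72 FPKM of Dusp6 in Control, 23.7 to 32.8 in PDGF-BB and 8.62 to 15.7 in PDGF-BB+PTUPB. This ratio of the ERK-selective cytoplasmic phosphatase to the broader nuclear one was higher in every PDGF-BB library than in any other. That separation follows from the higher Dusp6 and lower Dusp1 of these libraries, given above, and is not a further result.

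**Figure D3:**
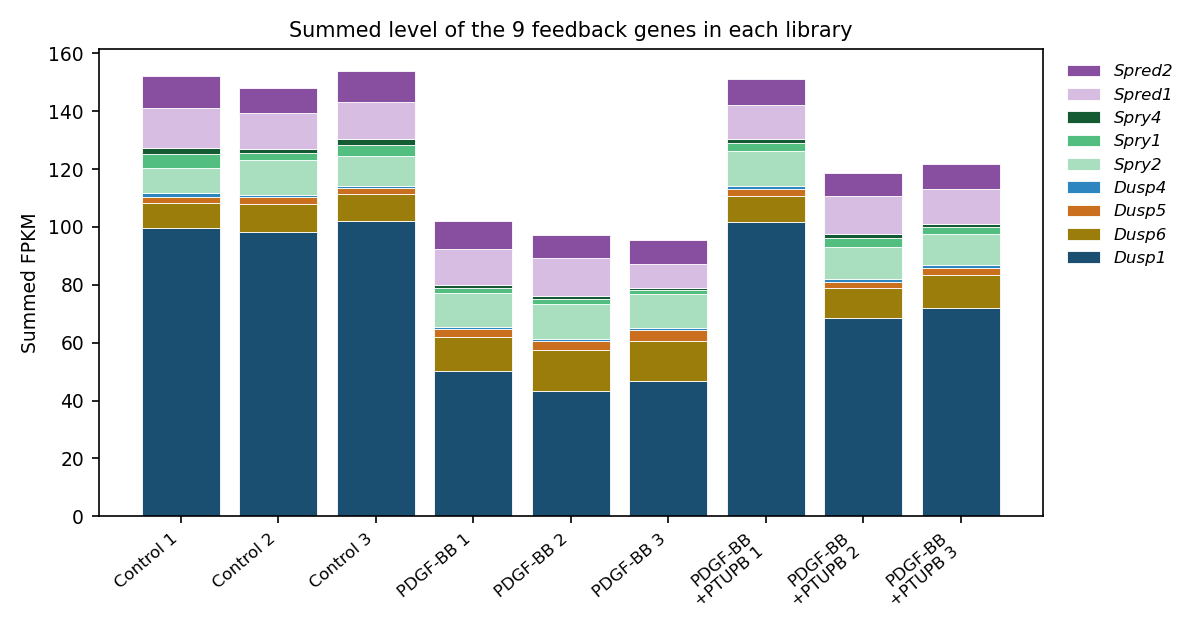
Stacked FPKM of the 9 genes (vertical axis, from 0) in each of the 9 libraries (horizontal axis, with replicate numbers). The Dusp1 segment is shortest in the 3 PDGF-BB libraries, and the height above it stays between 48.7 and 53.95 FPKM in every library.

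The genes were also compared by their profiles over the 9 libraries. Likeness was measured as the root mean square difference of centred log2 CPM, where 0 would be identical profiles. The closest pairs were Dusp5 and Dusp6 (0.173), Spred1 and Spred2 (0.202) and Spry1 and Spry4 (0.221), and the farthest was Dusp5 and Spry1 (0.784). Genes that vary little come out close whatever their pattern. Spred1 and Spred2 had SDs of 0.218 and 0.179 over the libraries, and Dusp6 and Spry2 differed by 0.225. Spry1 and Spry4 differed from Spry2 by 0.641 and 0.583. The 3 tested genes nearest to Dusp1 were Lbp (0.115), Siglec10 (0.121) and the chemokine gene Cxcl12 (0.122). Those nearest to Dusp6 were the splicing factor gene Srsf7 (0.062), the mitochondrial ribosome gene Mrps22 (0.073) and Gatad1 (0.075). Nearest to Dusp5 were Irf5 (0.066), Mrps30 (0.071) and Mrpl50 (0.085), and to Spry4 Mrvi1 (0.158), the calcium channel gene Cacna1c (0.167) and Klhl42 (0.172). Among the nearest to Spry1 were Zzef1 (0.143) and Daam2 (0.154), and among those to Spred1 Tnrc6a (0.064) and Magt1 (0.069). Nearest to Spred2 were Myrf (0.075), Atp6v0a2 (0.079) and Polr2a (0.082), and to Spry2 Arfip2 (0.035), Acss2 (0.052) and AABR07072356.1 (0.056). These distances share libraries and depth and are descriptions over 9 libraries in 3 groups.

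Other phosphatases of the dual-specificity class moved in both directions with PDGF-BB. Of 21 further genes 15 were tested, and 6 of these passed, 3 higher and 3 lower, where 33.2% of all tested genes passed. The 15 had a median log2 change of -0.12 where the median of all tested genes was -0.02. Dusp22, an atypical phosphatase, had 1.46 ± 0.124 CPM in Control against 5.05 ± 0.543 with PDGF-BB (SD, n = 3), a rise of 1.78 ± 0.21 on the log2 scale (edgeR adjusted p = 1.72e-04). Dusp14, another atypical member, had 7.22 ± 1.51 and 13.3 ± 2.18 CPM (0.88 ± 0.19, edgeR adjusted p = 0.00531). Dusp7, a cytoplasmic ERK phosphatase like Dusp6, rose by a log2 change of 0.29 ± 0.10, close to the threshold (edgeR adjusted p = 0.0425). The 3 genes that fell, Ssh1 (-0.53 ± 0.18), Ssh2 (-0.89 ± 0.19) and Ssh3 (-0.36 ± 0.07), encode slingshot phosphatases, whose substrate is the actin-severing protein cofilin. Ssh1 was also close to the threshold (edgeR adjusted p = 0.0463). With PTUPB, Dusp22 (-1.05 ± 0.20) and Dusp14 (-0.68 ± 0.19) fell and Ssh3 (0.28 ± 0.07) rose, and Dusp7 did not pass (-0.31, edgeR adjusted p = 0.0505). The MAPK phosphatase genes Dusp2, Dusp8 and Dusp9 were too low to be tested, and Dusp10 and Dusp16 did not pass in either comparison.

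Among 17 tested inhibitors of receptor and RAS signalling outside the 9 genes, 1 rose and 4 fell with PDGF-BB (median log2 change -0.15), a count near the 33.2% of all tested genes. Pebp1, which encodes the RAF kinase inhibitor protein, had 145.3 ± 9.45 CPM in Control against 233 ± 27.0 with PDGF-BB. It rose by 0.68 ± 0.09 (log2; edgeR adjusted p = 4.97e-04) and fell with PTUPB (-0.45 ± 0.09, edgeR adjusted p = 0.0103). Nf1, the gene of neurofibromin, with which SPRED proteins act, fell with PDGF-BB (-0.59 ± 0.15), as did Lrig1 (-0.64 ± 0.17), Lrig2 (-0.54 ± 0.14) and the ubiquitin ligase gene Cblb (-0.27 ± 0.08). With PTUPB 1 of the 17 passed, Pebp1, where 18.3% of all tested genes passed. The remaining family members Spry3 and Spred3 were at 0.900 ± 0.161 and 2.29 ± 0.327 FPKM in Control and passed in neither comparison.

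In the cascade that these proteins inhibit, the PDGF receptor genes fell and genes further down moved in both directions. Of 25 tested genes of receptors, adaptors, RAS and the ERK cascade 3 rose and 5 fell with PDGF-BB, also near the share of all tested genes (33.2%). Pdgfrb, a receptor of PDGF-BB, fell by 1.04 on the log2 scale (SE 0.07) and Pdgfra (-0.97 ± 0.13), Fgfr1 (-0.34 ± 0.08), Sos2 (-0.48 ± 0.12) and Mras (-0.48 ± 0.08) fell too. The genes that rose were Hras (0.43 ± 0.10), the adaptor gene Grb2 (0.36 ± 0.10) and the MEK gene Map2k1 (0.27 ± 0.08). Mapk3, which encodes an ERK kinase, did not pass (0.11 ± 0.08, edgeR adjusted p = 0.328). With PTUPB 4 rose and 2 fell, where 8.28% of all tested genes were higher and 10.0% lower. Pdgfrb was at 0.69 ± 0.07, Pdgfra at 0.61 ± 0.13, Mras at 0.30 ± 0.08, Rras at 0.25 ± 0.08, Grb2 at -0.42 ± 0.10 and Hras at -0.41 ± 0.10. Pdgfrb was the 1 gene of this list that passed between PDGF-BB+PTUPB and Control (-0.35 ± 0.07, edgeR adjusted p = 0.0257). In the p38 and JNK cascade 1 of 12 tested genes passed with PDGF-BB, a fall of the p38 substrate kinase gene Mapkapk2 (-0.28 ± 0.08), which did not pass with PTUPB (0.11, edgeR adjusted p = 0.421). Over all tested genes 33.2% passed with PDGF-BB. With the edgeR filter on counts, the low genes Map2k6 (2.89 ± 0.58, edgeR adjusted p = 0.00411) and Map3k1 (-1.03 ± 0.36, edgeR adjusted p = 0.0486) of this list passed with PDGF-BB too. With PTUPB they passed at -2.98 ± 0.59 (edgeR adjusted p = 0.00807) and 1.47 ± 0.35 (edgeR adjusted p = 0.0177). Both genes entered that filter through the groups in which they were high, so these p-values depend on the outcome. Of the ERK cascade list, Ksr1 also passed with PDGF-BB under that filter (-1.39 ± 0.42, edgeR adjusted p = 0.0279). Ksr1 had 35, 40 and 111 counts in Control replicates 1 to 3, and did not pass with PTUPB (edgeR adjusted p = 0.349).

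**Figure D4:**
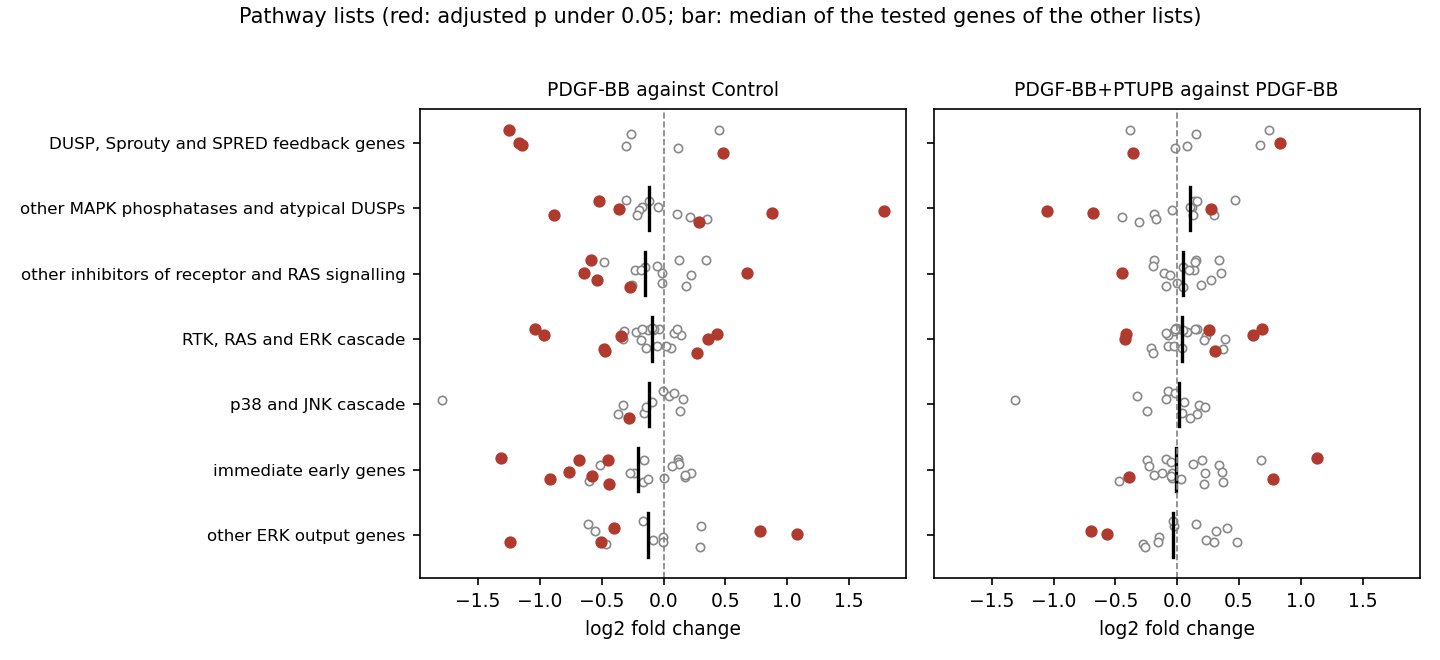
Log2 fold change of each tested gene (points, horizontal axis) by list for PDGF-BB against Control (left) and PDGF-BB+PTUPB against PDGF-BB (right); red points have an adjusted p under 0.05 and black bars are medians of the lists other than the feedback genes. Genes that passed lie on both sides of 0 in most lists, and in the immediate early list the 7 genes that passed with PDGF-BB are all on the lower side.

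Transcripts known as outputs of ERK moved in both directions. Of 14 tested ERK output genes 2 rose and 3 fell with PDGF-BB, near the background of 33.2%. Emp1 (1.08 ± 0.11) and cyclin D1 (Ccnd1, 0.78 ± 0.14) rose, and the ligand gene Ereg (-1.24 ± 0.24), Mafk (-0.51 ± 0.11) and Phlda1 (-0.40 ± 0.13) fell. Etv4 and Etv5, ETS factor genes that often move with Dusp6 and the Sprouty genes under ERK control, did not pass (0.30, edgeR adjusted p = 0.0647, and -0.09, edgeR adjusted p = 0.605). With PTUPB Emp1 (-0.56 ± 0.11) and Ccnd1 (-0.69 ± 0.14) fell. Emp1 was the 1 ERK output gene that passed between PDGF-BB+PTUPB and Control (0.51 ± 0.11, edgeR adjusted p = 0.0416). Of 22 tested immediate early genes, the first to be transcribed after a stimulus, 7 fell with PDGF-BB, where 15.8% of all tested genes fell and 33.2% passed either way. Among them were Fos (-1.32 ± 0.24), Klf2 (-0.92 ± 0.23), Nr4a2 (-0.77 ± 0.20) and Klf6 (-0.44 ± 0.13). With PTUPB Fos (1.13 ± 0.24) and Klf2 (0.78 ± 0.23) rose and Jun (-0.39 ± 0.11) fell. The immediate early list was also chosen with earlier results of these data known, so its share beside that of all genes is a description.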

How the data were processed

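Per the labels' protocols, poly(A) RNA was sequenced paired-end, and the tools named in the submitters' processing notes are HISAT2 2.0.1, HTSeq 0.6.1 and cutadapt 1.9.1. These notes give the mouse build mm10, whereas the identifiers are those of rat genes, so the build is not known and no coordinates of the file are given; the strand setting is not given in the sources used here. The deposited file holds an expected count per gene and library, not whole for 978 genes, and the authors' FPKM. Counts were rounded and fitted with edgeR 4.0.16 (R 4.3.3; quasi-likelihood F test after TMM scaling, no covariate, all 9 libraries, 6 residual degrees of freedom), two-sided, with Benjamini-Hochberg adjustment over 11197 genes. The biological coefficient of variation was 0.137. Levels of 1 gene are CPM, levels of different genes FPKM. The fit was also run on counts simulated from its own means and dispersions. That run cannot show whether the model suits these libraries. Alternatives used DESeq2 1.42.0, limma 3.58.1 with pseudocounts of 1 and 0.1, other scalings and filters, a replicate block, and fewer libraries. The feedback genes and all lists were chosen with earlier results of these data known. All 9 feedback genes, up to 4 called genes per list by smallest p and the 3 nearest profiles per gene were named, except a few genes that are not reported here; further called genes, and genes named as not passing or not tested, were added after their values were seen. Promoter sequences are from RefSeq (GRCr8); 8 of 9 genes had one.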

Additional observations from a re-analysis of the deposited data

How the results depend on the processing

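Of the 4 calls between PDGF-BB and Control (Dusp1, Dusp6, Spry1 and Spry4), each passed with the same sign in all 19 alternatives. The number of feedback genes called ranged from 4 to 6 when 1 library was left out. In those fits 2770 to 3902 of the 11197 tested genes were called, against 3714 with all 9 libraries. The fit without Control replicate 2 called the most of both, 6 feedback genes and 3902 genes in all. Spry4 passed the FPKM filter only through the groups in which it was high. Between PDGF-BB+PTUPB and PDGF-BB the number of feedback genes called was 2. It was 1 with no filter on low values and 1 to 3 with 1 library left out. With 1 library left out, 1002 to 2463 of all tested genes were called. In the fit of these 2 groups alone the 2 genes were Dusp1 and Spry1. Between PDGF-BB+PTUPB and Control the number of 0 became 0 to 1 with 1 library left out and 1 when Control replicate 2 was left out along with PDGF-BB replicate 3. The count over all genes, 247, became 441 with DESeq2, 1345 without those 2 libraries and 93 to 340 with 1 library left out. Its split of 212 higher and 35 lower became 193 and 147 without Control replicate 2 and 650 and 695 without both libraries. The split of calls between PDGF-BB+PTUPB and PDGF-BB was 927 higher and 1121 lower with TMM scaling and 759 and 1414 with library totals. Values near 0 that never passed changed sign: Spry2 with PTUPB to 0.015 without PDGF-BB+PTUPB replicate 3 (range with 1 library left out -0.068 to 0.015), Spred1 with PTUPB to -0.028 without PDGF-BB replicate 3, alone or with Control replicate 2 (range -0.028 to 0.25), and Dusp5 between PDGF-BB+PTUPB and Control to -0.056 without Control replicate 3 (range -0.056 to 0.19). The cause of these differences was not tested. Same-numbered libraries had deviations that correlated between -0.284 and 0.194, so the numbers were not taken to pair them, and 1 of 9 libraries correlated best with its own number in both other groups. With the replicate number as a block 4, 2 and 0 feedback genes and 3294, 1602 and 168 genes in all were called in the 3 comparisons. Dusp4, Dusp5, Spry1 and Spry4 rest on 31 to 165 counts per library, which limits the precision of their values.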

Other observations

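Map2k6 and Map3k1, genes of kinases upstream of p38 and JNK, were too low for the FPKM filter and were singled out after their values were seen. Map2k6 had 6, 3 and 2 counts in Control, 28, 17 and 29 in PDGF-BB and 1, 2 and 7 in PDGF-BB+PTUPB. Map3k1 had 26, 21 and 16 counts in Control, 11, 10 and 6 in PDGF-BB and 22, 34 and 28 in PDGF-BB+PTUPB. Their PDGF-BB libraries lay apart from both other groups, higher for Map2k6 and lower for Map3k1. Among all tested genes, 44.6% did not overlap between PDGF-BB and Control and 40.7% between PDGF-BB+PTUPB and PDGF-BB.

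Map3k7, the gene of the kinase TAK1, varied between libraries of the same group more than between groups and was also singled out after its values were seen. It had 156, 20 and 1020 counts in Control, 66, 225 and 18 in PDGF-BB and 16, 122 and 6 in PDGF-BB+PTUPB. It did not pass between PDGF-BB and Control (log2 -1.79, edgeR adjusted p = 0.276).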
